A study of Drosophila melanogaster with 6 samples.

Results

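The genes that divide insect appendages from base to tip were examined in wing imaginal discs of wild-type Drosophila melanogaster. This larval epithelium gives rise to the wing blade, the hinge that joins it to the body, and the notum, the back of the thorax. The set was teashirt (tsh), homothorax (hth), dachshund (dac), aristaless (al), Distal-less (Dll) and defective proventriculus (dve), and its members were all probe sets whose platform annotation names 1 of these genes and no other. There were 5 such probe sets among 13966 for fly RNA, 1 each for tsh, dac, al, Dll and dve. No probe set carries the name hth, so hth was not analysed here. All 5 passed the filter on low values.

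Discs of the last larval instar had been dissected into body wall and wing/hinge pieces, and total RNA of each kind of piece was hybridised to 3 Affymetrix expression arrays, which the labels call biological replicates. Both kinds of fragment came from wild-type discs and no treatment is named. The number of arrays limits the precision, and p-values measure only the spread between these samples. The labels give body wall replicates 1 and 2 aliases that resemble each other. They differed from each other about as much as other arrays of 1 fragment (SD of log2 differences 0.814, against 0.735 to 0.868 for the other pairs), so they were counted as separate samples. Of the pairs within a fragment they shared the most identical values, 30 against 15 to 27, and they fall in different sets of the split by array range given with the markers. Whether they are repeats of the same RNA is not stated in the labels, and if they were, body wall would hold 2 samples. Averaged to 1 sample they gave log2 differences of -4.02 for Dll (limma adjusted p = 0.0181), -5.10 for dve (0.00747) and 1.08 for tsh (0.299).

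Appendages of the fly are built in zones along the proximodistal axis, each marked by its own transcription factors. At the base, hth, which brings the cofactor Extradenticle into the nucleus, and tsh, which encodes a zinc finger protein, hold proximal and trunk identity. In the leg, dac, a nuclear factor of the Ski/Sno family, marks the middle, and the homeobox genes Dll and al mark the distal part and the tip. In the wing disc the pouch, which forms the blade, expresses the homeobox genes Dll and dve, while hth and tsh are known from the notum and hinge and are lost from the pouch.

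Markers of either side of the cut separated the fragments. The notum factor gene pnr measured 333.7, 600.8 and 555.9 in body wall, against 20.8, 5.5 and 19.1 in wing/hinge, and the pouch gene nub measured 103.8, 92.3 and 85.8 in body wall, against 1332.7, 1910.2 and 2875.3 in wing/hinge. Values are the deposited intensities on a linear scale, and values of different probe sets were not set against each other. They were added only in the sums of marker lists, in which bright probe sets weigh most. The muscle precursor gene twi, a marker of the mesodermal cells under the notum, averaged 763 in body wall and 29.2 in wing/hinge. Of the other marker lists, body wall epithelium (8 tested) had 3 genes called higher in body wall. This count is without tup, whose brightest probe set did not pass. A dimmer one of tup was called at a limma adjusted p of 0.00154, averaging 236.7 in body wall, against 4.47 in wing/hinge. Pouch and hinge epithelium (7) had 5 called higher in wing/hinge, and haemocytes (5) had 1 called higher in body wall, Col4a1. Fat body (3) and neurons and glia (5) had none. Tracheal cells (3) had 1 called higher in wing/hinge, vvl (164.5 to 199.8 in body wall, 582.0 to 775.1 in wing/hinge). The tracheal list went both ways: btl, uncalled, was brighter on every body wall array (37.9 to 123.5) than on any wing/hinge array (11.6 to 18.5), and kni overlapped. The haemocyte gene Hml averaged 73.1 in body wall and 37.2 in wing/hinge, not called. Replicate 1 of body wall and replicates 1 and 2 of wing/hinge had maxima of 24976 or more, with an actin 3' to 5' ratio of 1.92 to 2.98. The other arrays stayed at or below 14881, with a ratio of 1.12 to 1.28. These are called the wide-range and narrow-range arrays, and the split is seen only in the data.

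Along the axis, the most proximal gene measured was brighter on every body wall array, both pouch genes were far brighter in wing/hinge, and the genes of the middle and tip of the leg overlapped between the fragments. Of the 5 members none passed the test toward body wall, Dll and dve passed toward wing/hinge, and tsh, dac and al did not pass. Over all 11698 probe sets tested, 0.915% had a Benjamini-Hochberg adjusted p under 0.05 by limma and are referred to as called, 0.59% toward body wall and 0.325% toward wing/hinge. The fragments did not overlap for 3 of the 5 members (Dll, dve and tsh), against 15% of all probe sets tested. Differences are given as body wall minus wing/hinge on the log2 scale, with values under an intensity floor of 20.4 set to it. The smallest p of an exact permutation test on 3 and 3 arrays is 0.1.

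**Figure D1:**
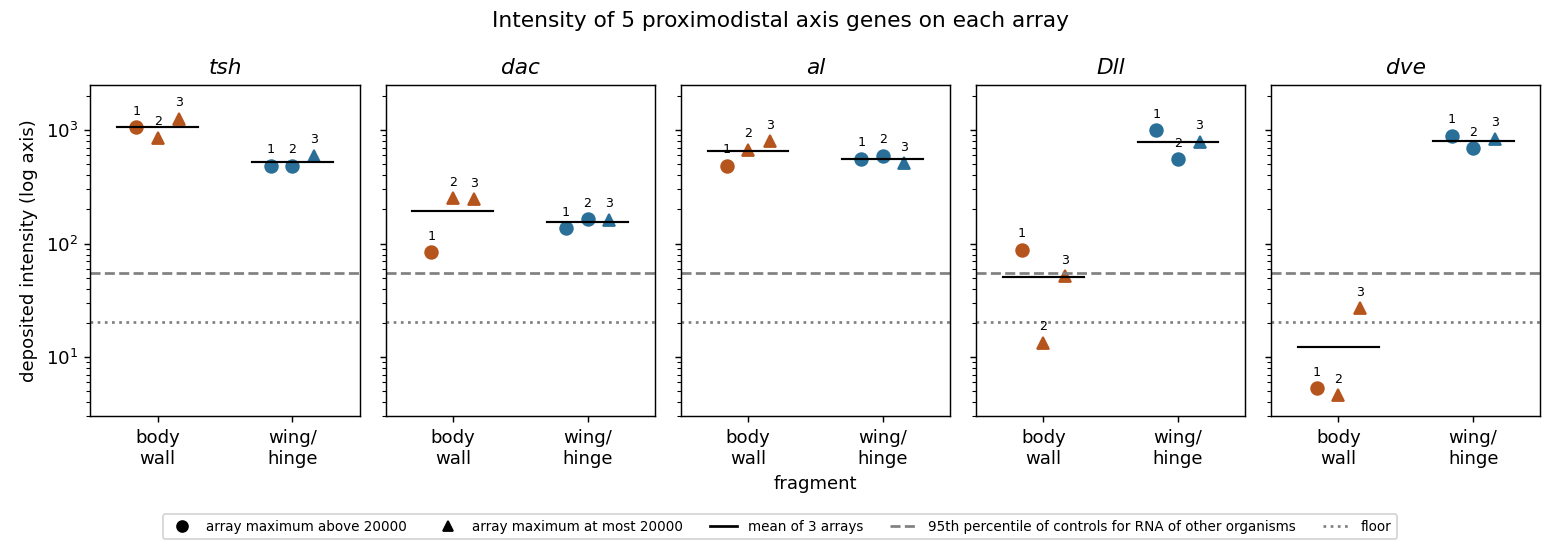
Deposited intensity (log axis) of tsh, dac, al, Dll and dve on each of the 3 body wall arrays (left, brown) and 3 wing/hinge arrays (right, blue), numbered by replicate, with the mean of each fragment as a line and circles or triangles for arrays with a maximum above or at most 20000. All tsh values of body wall lie above those of wing/hinge, all Dll and dve values lie below them, and dac and al overlap. The dashed and dotted lines are the 95th percentile of control probe sets for RNA of other organisms (55.1) and the floor (20.4), and panels are not comparable in level.

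The proximal gene tsh (probe set 143064_at) measured 1056.6, 854.9 and 1253.7 in body wall, against 486.8, 481.3 and 589.7 in wing/hinge. It was bright in both fragments, and the lowest body wall value lay above the highest wing/hinge value. The mean ± SD (n = 3 each) was 1055 ± 199 in body wall and 519 ± 61.1 in wing/hinge. The log2 difference was 1.01 (SE 0.24, 95% interval 0.43 to 1.59), a ratio of 2.02, and did not pass over all probe sets (limma adjusted p = 0.190). Of all probe sets tested, 544 lay as far or farther toward body wall. With the variance fitted as a trend on intensity the same difference passed (limma adjusted p = 0.0192), and in the other 18 alternatives it did not. The wing/hinge level was well above the background controls on every array, and in a fragment of mixed cells a lower share of cells with the transcript and less RNA per cell cannot be told apart.

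Markers of adult muscle precursors moved in the same direction as tsh. Of 6 listed genes 4 had a probe set, and all 4 were higher in body wall (twi, Him, zfh1 and htl). Their summed intensity was 1664.7 to 2004.5 in body wall and 104.6 to 137.9 in wing/hinge. None was at 0. The summed markers of haemocytes also did not overlap, at 1385.6 to 1632.7 in body wall and 337.1 to 441.9 in wing/hinge. In body wall most of that sum came from Col4a1 (710.2 to 953.0) and vkg (274.1 to 502.6). In wing/hinge these measured 152.8 to 217.7 and 17.6 to 128.8, while Hml and Pxn of the same list overlapped between the fragments. Those of fat body did not overlap either, at 847.1 to 1036.1 in body wall and 214.4 to 705.1 in wing/hinge. The part of these cells in the tsh difference was not tested.

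The gene of the leg's middle zone, dac (probe set 143574_at), measured 83.6, 249.8 and 244.9 in body wall, against 135.9, 164.1 and 161.1 in wing/hinge. Body wall held both the lowest value and the 2 highest, while the wing/hinge arrays lay within a ratio of 1.21. The mean ± SD (n = 3 each) was 193 ± 94.6 in body wall and 154 ± 15.5 in wing/hinge. The log2 difference was 0.17 (SE 0.45; limma adjusted p = 0.954). The 95% interval ran from -0.90 to 1.24. The low value came from body wall 1, the body wall array of the wide-range set. On the wide-range arrays the difference was -0.84 and on the narrow-range arrays 0.62, each with 1 fragment on a single array. Without body wall 1 it was 0.69 (limma adjusted p = 0.546).

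Since dac, al and Dll are also genes of other discs, markers of leg, haltere and eye discs were read beside them. Of 7 listed genes, 4 were tested and none passed, 2 (Scr and Lim1) were under the filter, and Ubx had no probe set of its name. Without passing, C15 was higher on every body wall array (1.90) and eya on every wing/hinge array (-0.82). The summed intensity of the list was 872.8 to 1139.8 in body wall and 632.7 to 926.4 in wing/hinge. Much of that sum was C15, at 402.2, 464.0 and 598.9 in body wall, against 120.0, 246.7 and 72.8 in wing/hinge. The higher body wall sum therefore rests on C15, as eya went the other way and the genes so and ey overlapped. The part of such cells in the values of the members was not tested.

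The homeobox gene al (probe set 143065_at), which in the leg marks the tip, measured 481.5, 670.9 and 797.6 in body wall, against 560.8, 594.1 and 508.3 in wing/hinge. Body wall again held the lowest and the highest values. The mean ± SD (n = 3 each) was 650.0 ± 159 in body wall and 554 ± 43.3 in wing/hinge. The log2 difference was 0.20 (SE 0.26, 95% interval -0.42 to 0.83; limma adjusted p = 0.887). As with dac, body wall 1 was the low one, and the difference was -0.26 on the wide-range and 0.53 on the narrow-range arrays.

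The distal homeobox gene Dll (probe set 143081_at) measured 88.4, 13.4 and 51.4 in body wall, against 998.8, 552.1 and 790.5 in wing/hinge. Every wing/hinge value was several times the highest body wall value. Of the body wall values, 1 lay under the floor and 2 lay under the 95th percentile of the control probe sets, so the body wall level is close to background. Of all values of 23 such control probe sets, 64.5% lay at or under the floor. The mean ± SD (n = 3 each) was 51.1 ± 37.5 in body wall and 780 ± 224 in wing/hinge. The log2 difference was -4.07 (SE 0.55, 95% interval -5.37 to -2.76; limma adjusted p = 0.0282). With the dim values treated otherwise it was -4.27 (floor halved) to -3.07 (log2(value + 50) scale).

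The body wall values of Dll varied more than those of most probe sets, with a log2 SD of 1.07 that 7.01% of the probe sets tested exceeded. In wing/hinge the SD was 0.43, which 41.5% exceeded. Leaving out single arrays in turn gave log2 differences of -4.55 to -3.49, and the call held only without body wall 1 (limma adjusted p = 0.0352). It ended without each of the other 5 arrays (limma adjusted p 0.0517 to 0.115). With the wide-range and narrow-range arrays as a block the difference was -3.84 and did not pass (limma adjusted p = 0.0715). It was -3.07 on the wide-range and -4.61 on the narrow-range arrays, subsets in which 1 fragment rests on a single array and limma called no probe set.

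The pouch gene dve (probe set 143919_at) measured 5.3, 4.6 and 26.9 in body wall, against 895.4, 690.4 and 842.8 in wing/hinge. All body wall values lay under the 95th percentile of the control probe sets, and 2 lay under the floor. The mean ± SD (n = 3 each) was 12.3 ± 12.7 in body wall and 810 ± 106 in wing/hinge. The log2 difference was -5.17 (SE 0.24, 95% interval -5.74 to -4.60; limma adjusted p = 0.00115). Setting 2 body wall values to the floor removed most of their spread, which can lower the SE.

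The size of the dve difference depended on how the dim body wall values were treated. It was -5.84 with the floor halved, -4.30 with it doubled, -3.87 with the controls' 95th percentile as floor and -3.80 on the log2(value + 50) scale, and it passed in each. The call also held with each array left out in turn (log2 difference -5.30 to -5.09; limma adjusted p 0.00803 to 0.0161) and with the array range as a block (-5.22; limma adjusted p = 0.00719). On the wide-range arrays the difference was -5.27 and on the narrow-range arrays -5.17.

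**Figure D2:**
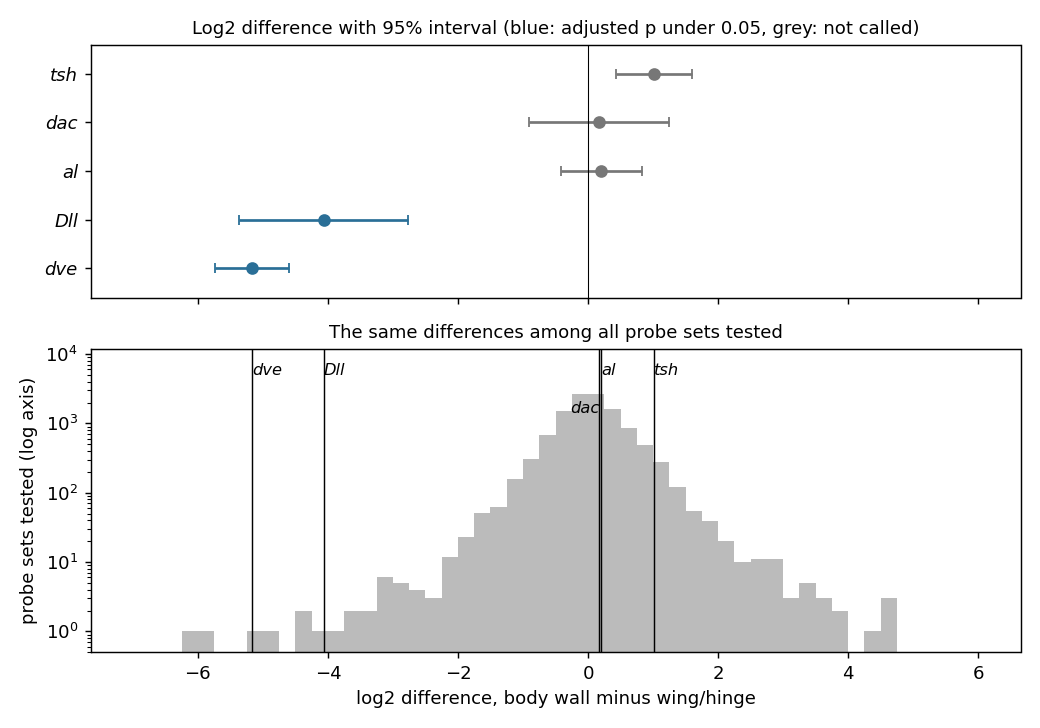
Log2 difference, body wall minus wing/hinge, of the 5 members with its 95% interval (top; blue where the adjusted p is under 0.05, grey elsewhere) and the members' place among the 11698 probe sets tested (bottom; counts on a log axis). The points of Dll (-4.07) and dve (-5.17) lie in the sparse tail toward wing/hinge, tsh (1.01) lies on the shoulder toward body wall, and dac (0.17) and al (0.20) lie near 0.

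**Figure D3:**
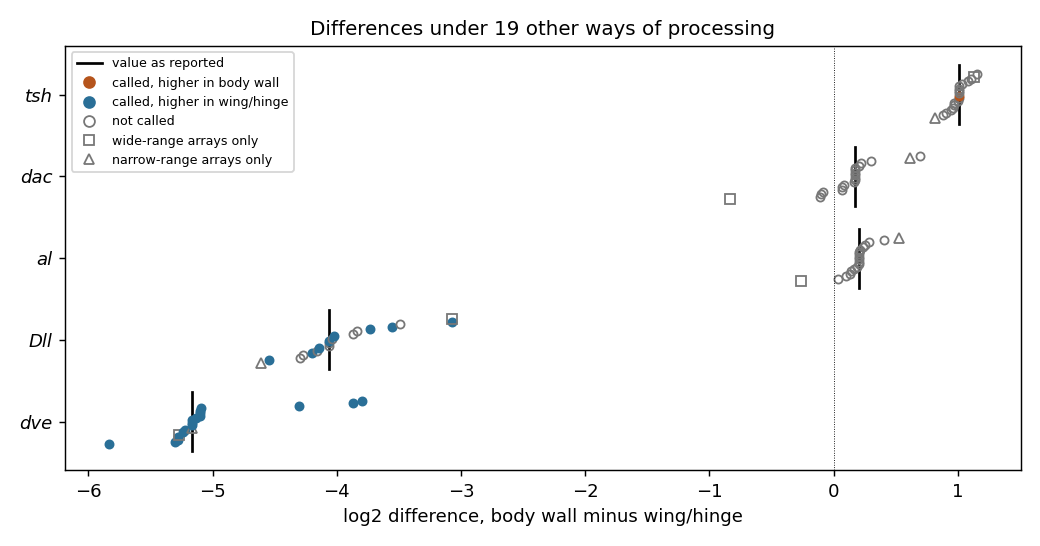
Log2 difference of the 5 members as reported (line) and under 19 other ways of processing (points; filled where called, squares and triangles for the wide-range or narrow-range arrays alone). Values of dve, Dll and tsh stay on their side of 0 in all 19, while dac and al cross it. The call of dve holds in 17 of them, that of Dll in 8, and tsh is called in 1.

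Other genes of the axis were described from 5 lists, and the genes named are those called and the 3 largest uncalled differences of each list. Of 56 listed genes 45 were tested, with 2 called higher in body wall, 5 higher in wing/hinge and 38 not called. The median log2 difference was 0.01, against 0.03 over all probe sets tested.

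Among 18 genes that pattern the wing along this axis, 14 were tested, none was called higher in body wall, 4 were called higher in wing/hinge and 10 were not called (median -0.50). The called genes were the POU genes pdm2 (-5.82) and nub (-4.37), the zinc finger homeodomain gene zfh2 (-2.87) and the HMG-box gene Sox15 (-2.54). With single arrays left out Sox15 stayed called in 1 of 6 fits (limma adjusted p 0.0330 to 0.115). The uncalled genes with the largest differences were nab, which encodes a transcriptional cofactor (-3.10), the odd-skipped family gene drm (1.61) and fj, which encodes a Golgi kinase (1.27). Wing/hinge values of fj were dim (42.1, 16.5 and 66.0), and its difference ran from 0.42 to 1.81 over the alternatives. A dimmer probe set of nab was called toward wing/hinge (means of 11.9 in body wall, under the floor on every array, and 155.5 in wing/hinge; limma adjusted p = 0.0106). Further probe sets that did not pass gave -1.12 and -1.20 for pdm2, -3.14 for nub, -1.52 for zfh2 and -1.34 for Sox15. A further one each of nub (-3.62) and Sox15 (-4.38) was called. The gene rn, also in the leg and antenna list, was represented by its brightest probe set at -0.46. Its dimmer ones gave -1.94, -1.64 and -2.17, and none of them was called.

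Of 17 genes of the leg and antenna list 15 were tested, 2 called higher in body wall, none called higher in wing/hinge and 13 not called, with differences in both directions (median 0.53). The homeobox gene B-H1, which in the leg acts in the tarsus, measured 277.0, 598.4 and 328.7 in body wall, against 32.2, 24.7 and 24.3 in wing/hinge (log2 difference 3.82, SE 0.34; limma adjusted p = 0.00627). All 3 wing/hinge values lay under the 95th percentile of the control probe sets, and over the alternatives the difference ran from 2.49 to 4.19 and was called in 16 of 19. The bHLH-PAS gene ss, needed for distal antenna and tarsus, measured 313.0, 320.0 and 375.5 in body wall, against 70.9, 109.2 and 112.5 in wing/hinge (1.81, SE 0.27; limma adjusted p = 0.035). For both genes the fragments did not overlap. The call of ss ended with any 1 array left out (limma adjusted p 0.0932 to 0.146). Uncalled were B-H2 (2.04), the tip gene C15 (1.90) and danr, an antennal gene (1.03). All wing/hinge values of B-H2 (13.6, 9.2 and 16.7) lay under the floor, so its size depends on the floor, with 1.04 to 3.05 over the alternatives. B-H1 and ss, which like Dll act distally in the leg, thus differed in the opposite direction from Dll. A role in the leg does not give a gene's place in the wing disc.

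**Figure D4:**
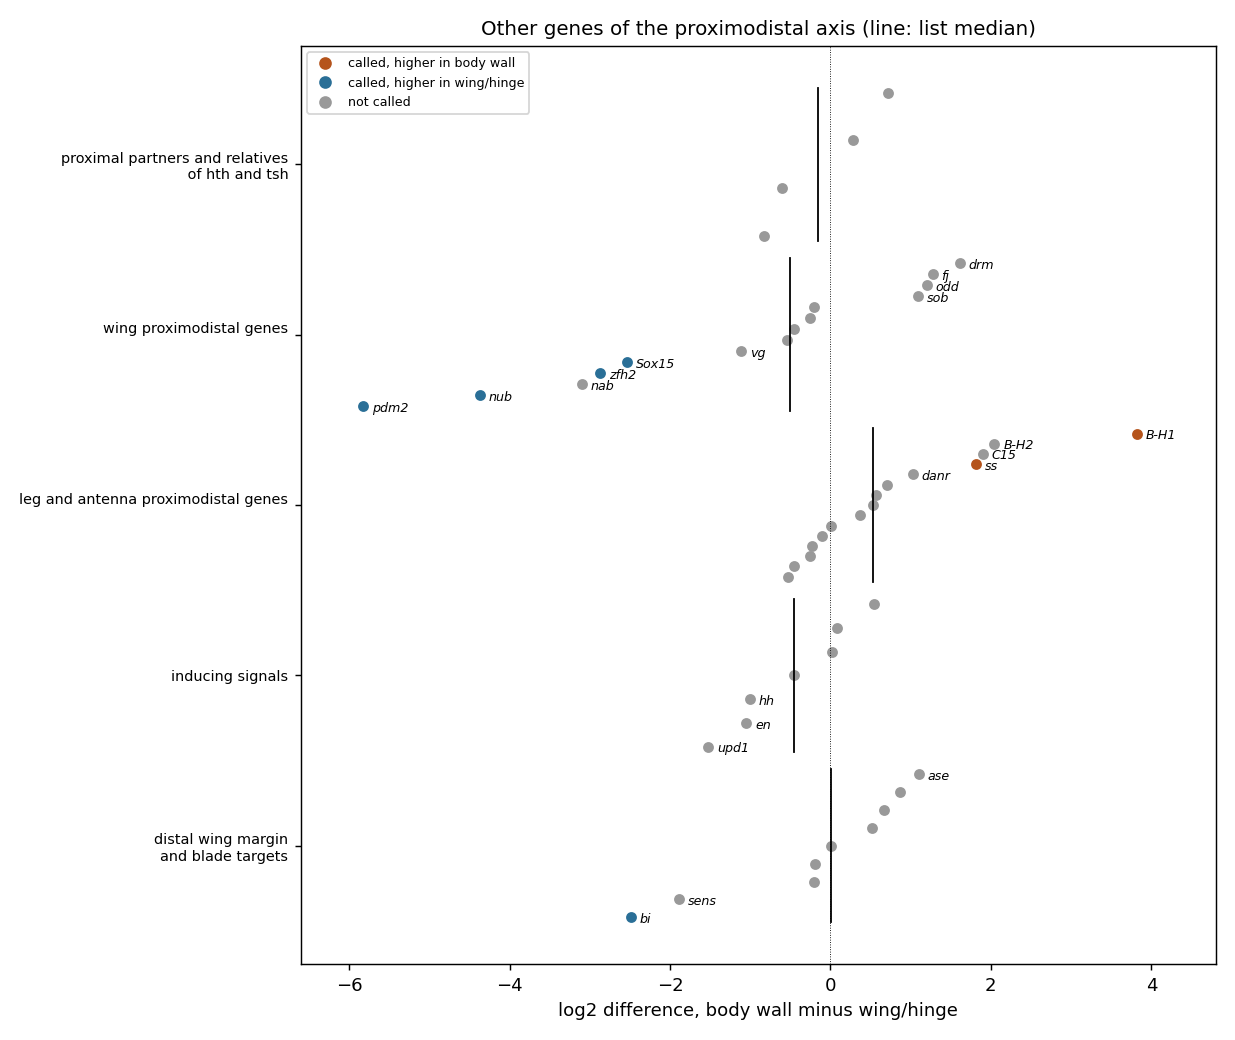
Log2 difference, body wall minus wing/hinge, of each tested gene of 5 lists of proximodistal, signal and target genes (brown: called higher in body wall, blue: called higher in wing/hinge, grey: not called; line: list median). The calls toward wing/hinge are pdm2, nub, zfh2 and Sox15 in the wing list and bi among the distal targets, and those toward body wall are B-H1 and ss in the leg and antenna list.

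Of the list of genes set beside hth and tsh, 4 were tested and none was called, and exd had no probe set of its name. The list median of -0.16 pools genes of both signs, with tio above 0 and elB and noc below it, and does not describe relatives of tsh alone. The closest relative of tsh, tio, measured 36.8, 131.9 and 201.1 in body wall, against 52.1, 24.8 and 169.1 in wing/hinge. Its 3 highest values came from the narrow-range arrays of both fragments. Its log2 difference was 0.72 (SE 0.86), and -0.01 with the array range as a block. The zinc finger genes elB (-0.83) and noc (-0.60) were brighter on every wing/hinge array than on any body wall array without passing the test.

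Among signals that set up the axis, 7 of 12 were tested and none was called (median -0.45). The largest differences were upd1, a Jak/Stat ligand gene (-1.53), the posterior selector gene en (-1.05) and the ligand gene hh (-1.01). The genes wg, N, Dl, Ser and vn had no probe set of their name. Of 10 targets of the wing margin and blade, 9 were tested and 1 was called higher in wing/hinge, the T-box gene bi (-2.49, SE 0.30; limma adjusted p = 0.0191), which stayed called in 1 of 6 fits with single arrays left out. The sensory precursor genes sens (-1.89) and ase (1.10) and the intervein gene bs (0.87) did not pass. Body wall values of sens (21.0, 59.2 and 17.6) and wing/hinge values of ase (18.1, 16.0 and 39.8) were dim. Over the alternatives that tested them sens ran from -2.40 to -0.95 and ase from 0.07 to 2.20.

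Likeness of patterns was measured as the root mean square difference between log2 profiles over the 6 arrays, each centred on its own mean, so that 0 is an identical pattern. For dve the nearest of 10417 other single-gene probe sets were tey (0.28), pdm2 (0.37) and peg (0.56), against a median of 2.64. For Dll they were the COE factor gene kn (0.62), amd (0.63), which encodes an enzyme related to dopa decarboxylase, and tey (0.73), against a median of 2.19. In body wall dve (12.3), tey (13.8), pdm2 (16.6) and kn (12.2) averaged under the floor. Setting values to the floor can make such patterns more alike. A brighter probe set of amd gave a log2 difference of 0.29. Dll and dve lay 0.84 apart, less than any pairing of either with tsh, dac or al (2.28 to 3.09). The pairs among tsh, dac and al lay closer still (0.35 to 0.71). These distances come from the same values as the log2 differences and are not separate evidence.

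The nearest patterns of the other members were closer on this scale, which grows with the size of the differences. For tsh they were the zinc transporter gene ZnT41F (0.063), CG6005 (0.076) and magu, a secreted regulator of Dpp signalling (0.097), with log2 differences of 1.06, 0.99 and 1.06 that did not pass. For dac they were SCAP (0.12), ppk3 (0.13) and Osi2 (0.14), and for al ari-2 (0.057), Nup54 (0.064) and lncRNA:CR42862 (0.081). With another scaling or floor between 1 and 3 of each set of 3 were found again.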

How the data were processed

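The table deposited by the authors gives 1 intensity for each probe set and array, on a linear scale as judged from the values. Per the labels' description, targets came from about 8 ug of total RNA by standard Affymetrix procedures; how probes were summarised and scaled is not stated in the sources used here. Trimmed means (2% from each end) were 300.0 to 300.1 on every array, so no further scaling was applied. Values under the 20th percentile of the fly probe sets (20.4) were set to it before log2. Probe sets above it on at least 3 of 6 arrays were tested, without 44 control probe sets.

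All probe sets were fitted together by lmFit and eBayes of limma 3.58.1 in R 4.3.3, two-sided and without a block, with Benjamini-Hochberg adjustment and a threshold of 0.05. The fit was tested on simulated data. Groups came from sample titles. In the platform annotation 12443 probe sets had 1 symbol, 327 several and 1196 none; 12394 matched RefSeq Release 6 by gene ID, with 0 symbols changed. A list gene of several probe sets was represented by the brightest tested one. Members, lists and the split by array range were chosen with earlier results of these data known. Named were all members, called list genes and the 3 largest uncalled differences of each list. Also named were the 3 nearest profiles of each member, and pnr, nub, twi and Hml. Untested genes, further probe sets and other marker genes were named where a count or a sum needed them. The labels state no pairing, so replicate numbers were not taken as pairs. Deviations of same-numbered arrays correlated at 0.06, -0.16 and 0.19, which is too few values to decide whether arrays were paired. Alternatives covered scaling, floor, filter, variance model, blocks and samples.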

Additional observations from a re-analysis of the deposited data

How the results depend on the processing

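Each fragment has 3 arrays, and the body wall values of Dll and dve lay near background, where the signal does not settle the size of a difference. Over 19 alternatives dve, Dll and tsh kept their direction; dve was called in 17, Dll in 8 and tsh in 1. The 107 calls over all probe sets became 52 with the array range as a block, 49 with body wall 1 and 2 averaged, 34 to 47 with single arrays left out, and 0 on the wide-range and 0 on the narrow-range arrays alone (limma; 983 and 752 at an unadjusted p under 0.05), which have 1 residual degree of freedom; the cause was otherwise not tested. Replicate numbers as a block left 10 calls, with dve called (limma adjusted p = 0.0499) and Dll not (-4.07; limma adjusted p = 0.0587). Members called fell to 1, dve, with the floor halved (Dll -4.27), with no filter (Dll -4.07), with the replicate block and with the array range as a block (Dll -3.84), to 1 or 2 with single arrays left out (Dll -4.55 to -3.49, dve -5.30 to -5.09) and to 0 on the wide-range (Dll -3.07, dve -5.27) and 0 on the narrow-range arrays (Dll -4.61, dve -5.17). With an intensity trend tsh was called at 1.01. The uncalled dac turned to -0.11 with the array range as a block and -0.84 on wide-range arrays, with -0.10 to 0.69 as single arrays were left out (negative without body wall 2 or 3, -0.08 without body wall 3), and al to -0.26 on wide-range arrays. The uncalled list gene tio turned to -0.01 with that block and -0.05 on narrow-range arrays. Leaving out single arrays gave 0.88 to 1.15 for tsh and 0.04 to 0.40 for al. The 7 called list genes, counted under the alternatives only after seeing the data, became 4 with no filter, 12 with the trend, 1 with the replicate block, 4 with the array range as a block, 0 and 0 on the wide- and narrow-range arrays, and 4 to 6 with single arrays left out. Averaging the probe sets of a gene was not run, as each member has 1.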
